A study of Mus musculus with 8 samples.

Results

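Ribosomal protein genes were followed as a constitutive promoter reference in open chromatin of mouse leukemia cells. The members were the protein-coding genes of the mm10 assembly whose symbol starts with Rpl or Rps followed by a digit, a, p, x or sa, leaving out pseudogenes and the Rps6k kinases. This gave 89 of the 21627 protein-coding genes on the 19 autosomes and X. They comprised 31 small subunit proteins, 43 large subunit proteins, the 3 P stalk proteins, 8 paralogs and 4 other genes caught by the symbol rule (Rps19bp1, Rpl37rt, Rps27rt and Rps23rg1).

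ATAC-seq, in which a transposase inserts sequencing adapters into accessible DNA, was run on leukemic granulocyte-macrophage progenitors (L-GMPs) from mice with MLL-AF9 acute myeloid leukemia, sorted as lineage-negative cells with c-Kit, CD34 and CD16/32 but without Sca-1. The study compared controls with cells that lack the chromatin protein DEK or carry a DEK with 4 substituted serines. Each of the 8 libraries started from about 5000 cells and was amplified for 13 to 16 PCR cycles, and 1 peak list was deposited per library. The labels do not say which libraries came from separate mice, so p-values measure the spread between these libraries.

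All 8 libraries carried MLL-AF9. FL 1 and FL 2 carried Dek fl/fl alleles without Cre in their labels. KO 1 and KO 2 had the same alleles with Mx1-Cre, a Cre driven by an interferon-inducible promoter. These 4 libraries are called the Mx1-Cre set. FL 3 was Dek+/+, KO 3 was Dek fl/fl with Tie2-Cre, a Cre active in endothelial and blood cells, and 4S-A 1 and 4S-A 2 carried Dek-Ser306A/Ser308A/Ser311A/Ser312A, a DEK in which 4 serines are replaced by alanine. These 4 are called the Tie2-Cre set. The sets were taken from the treatment text of the labels, of which the first 4 libraries share one version and the last 4 another. Each set is named after the Cre of its KO libraries, and only KO 3 has Tie2-Cre in its genotype label. The sets thus differed in the treatment text, in the Cre line of the knockout and in control genotype. Both 4S-A libraries lay in 1 set. The 4S-A libraries therefore had 1 FL library of their own set. A peak at the Dek gene cannot show whether its floxed part was deleted, so the knockout was not checked on these lists.

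Each cytoplasmic ribosome is built from a small subunit, which decodes the messenger RNA, and a large subunit, which joins the amino acids, with the acidic P stalk binding the elongation factors. Their protein genes are expressed in nearly every cell, have short promoters that rarely carry a canonical TATA box, and give messenger RNAs that begin with a run of pyrimidines, the TOP motif, through which mTOR signalling controls their translation. Proliferating blood progenitors need much ribosome production, and loss of a copy of several of these genes, RPS19 among them, causes Diamond-Blackfan anemia in humans.

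A gene-end peak was a peak whose summit lay within 1 kb of either end of the gene's span. Where a gene had several, the one with the highest −log10 q, the authors' peak significance, was taken. In the 8 lists 79 to 82 members had such a peak, and 61 to 69 of them had exactly 1. A gene-end peak in all 8 libraries was found at 79 of 89 members (88.8%), against 10731 of 21627 protein-coding genes (49.6%). By role these were 30 of 31 small subunit genes, 41 of 43 large subunit genes, 3 of 3 P stalk genes, 4 of 8 paralogs and 1 of 4 other matches.

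The promoter sequences below run from 100 bases before to 15 bases after the start listed by RefSeq (GRCm38.p6, the assembly also called mm10), 5′ to 3′ on the gene's strand. They show the 6 members with the highest mean peak percentile, a pair from the low end, 1 member low in both 4S-A libraries, and a pair of paralogs without a constant peak. Capitals mark the searched motifs: CCGGAA (ETS family), GCCATNTT (YY1), GGGCGG (GC box), CCAAT (NFY), CACGTG (E-box), TATAAA and the NRF1 motif, each on either strand. Capitals also mark a pyrimidine run of at least 5 bases over the start. The start base is the 15th from the right end.
Rpl37, chr15:5116513-5116627, plus strand: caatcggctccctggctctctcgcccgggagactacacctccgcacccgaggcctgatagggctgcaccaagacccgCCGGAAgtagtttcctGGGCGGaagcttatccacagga
Rpl15, chr14:18270972-18271086, minus strand: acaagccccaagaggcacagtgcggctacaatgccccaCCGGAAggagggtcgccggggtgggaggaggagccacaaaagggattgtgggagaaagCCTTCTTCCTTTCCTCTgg
Rpl27, chr11:101442145-101442259, plus strand: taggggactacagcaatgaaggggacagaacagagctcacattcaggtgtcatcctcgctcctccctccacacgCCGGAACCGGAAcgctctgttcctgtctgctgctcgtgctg
Rpl27a, chr7:109519095-109519209, plus strand: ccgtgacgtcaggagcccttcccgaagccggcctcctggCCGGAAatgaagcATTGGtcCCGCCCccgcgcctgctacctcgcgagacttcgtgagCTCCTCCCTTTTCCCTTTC
Rps19, chr7:24884492-24884606, plus strand: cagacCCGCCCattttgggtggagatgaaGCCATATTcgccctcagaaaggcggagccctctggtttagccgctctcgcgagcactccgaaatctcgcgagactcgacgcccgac
Rpl31, chr1:39367751-39367865, plus strand: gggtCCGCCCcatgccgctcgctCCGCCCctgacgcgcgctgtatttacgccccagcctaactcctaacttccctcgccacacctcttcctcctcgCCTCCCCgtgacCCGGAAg
Rps4x, chrX:102189377-102189491, minus strand: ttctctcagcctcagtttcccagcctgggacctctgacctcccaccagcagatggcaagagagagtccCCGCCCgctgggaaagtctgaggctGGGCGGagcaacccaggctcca
Rpl35a, chr16:33056353-33056467, plus strand: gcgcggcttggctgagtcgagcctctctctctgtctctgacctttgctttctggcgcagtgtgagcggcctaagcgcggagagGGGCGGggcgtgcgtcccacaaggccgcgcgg
Rps27, chr3:90213634-90213748, minus strand: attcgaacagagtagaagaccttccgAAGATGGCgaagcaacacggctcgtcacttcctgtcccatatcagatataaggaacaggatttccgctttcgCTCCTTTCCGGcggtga
Rpl10l, chr12:66284387-66284501, minus strand: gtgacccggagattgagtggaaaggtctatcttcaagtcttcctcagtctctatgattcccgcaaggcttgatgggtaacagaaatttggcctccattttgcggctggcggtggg
Rpl39l, chr16:10170128-10170242, plus strand: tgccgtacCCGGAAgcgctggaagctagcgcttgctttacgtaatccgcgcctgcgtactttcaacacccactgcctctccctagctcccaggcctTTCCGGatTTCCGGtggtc

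A RefSeq promoter window of 300 bases, 250 before and 50 after the start, was available for 69 members and 17273 genes. CCGGAA occurred in 46.4% of the member windows, 31.1% of the windows of all genes with a start peak in all 8 libraries and 19.6% of all windows. GCCATNTT occurred in 17.4%, 9.53% and 6.84%, in the same order. A start base C followed by 4 pyrimidines stood at the listed start in 20.3% of the member windows (14 of 69), in 199 of the 9036 open ones and in 2.23% of all windows. Allowing the motif to lie anywhere from 5 bases before the start through the first 10 bases of the transcript raised the shares to 44.9%, 20.1% and 19.0%. For the other motifs, GGGCGG was in 59.4% of the member windows against 69.8% of all open genes, CCAAT in 31.9% against 39.4%, CACGTG in 5 of 69 against 997 of 9036, the NRF1 motif in 7.25% against 11.7% and TATAAA in 10.1% against 6.09%. The median GC content was 57% in the member windows, 62% in the open genes and 57% in all windows. The 69 member windows include members without a constant start peak, unlike the open genes. In the 62 members with a start peak in all 8 libraries, CCGGAA was in 48.4%, GCCATNTT in 19.4% and GGGCGG in 64.5%. There CCAAT was in 32.3%, CACGTG and the NRF1 motif in 8.06% each and TATAAA in 9.68%, with a median GC content of 58.2%. These shares are descriptions of letters in a window and were not tested.

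**Figure D1:**
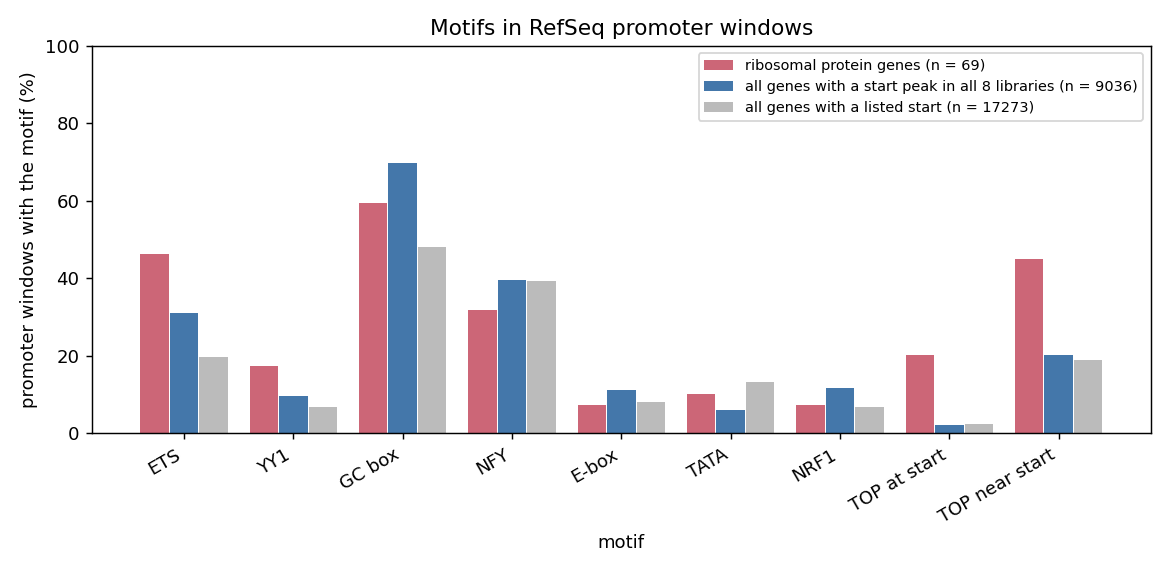
Share of RefSeq promoter windows (y axis, %) that hold each searched motif (x axis), for ribosomal protein genes, for all genes with a start peak in all 8 libraries and for all genes with a listed start. Ribosomal protein genes have the tallest bars for the ETS and YY1 letters and for the pyrimidine motif at or near the start.

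Peak rank was then set beside these letters. Among the 62 members with a start peak in all 8 libraries, the 30 with CCGGAA had a median list percentile of 93.5 and the 32 without it 92.0. Over all open genes the values were 92.0 for the 2810 with it and 88.9 for the 6226 without. The 12 members with the pyrimidine motif at the start had a median of 92.5 and the 50 without it 92.6. The widest gap among the members was at TATAAA, with a median of 88.9 for the 6 that held it and 92.7 for the other 56. Over all open genes TATAAA went with 86.6 in 550 genes against 90.3 in 8486 without it. The 5 members with CACGTG had 94.3 and the 57 without it 91.8. None of these differences was tested.

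The percentile of each peak's −log10 q in its own list placed most members high. Over the 8 libraries the mean percentile of the 79 members ranged from 39.1 to 99.8 with a median of 92.2, against 89.7 for all 10731 genes. Members were seldom low: 6.33% had a mean under 80, against 27.9% of all genes. A mean of at least 95 was found in 30.4% of the members and 27.7% of all genes. Neither share was tested. By mean percentile, 24 members stood at 95 or more, 27 from 90 to 95, 23 from 80 to 90 and 5 under 80.

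The 6 highest members were Rpl37, Rpl15, Rpl27, Rpl27a, Rps19 and Rpl31. Rpl37, a zinc-binding large subunit protein, stood at 99.6, 99.9 and 99.5 in FL 1 to 3, at 99.8, 99.8 and 99.9 in KO 1 to 3 and at 99.9 and 99.8 in 4S-A 1 and 2. Rpl15 stood at 99.6, 99.0 and 99.5 in FL, 99.6, 99.9 and 99.6 in KO and 99.6 and 98.7 in 4S-A. Rps19, the small subunit protein most often mutated in Diamond-Blackfan anemia, stood at 98.0, 98.3 and 99.8 in FL, 98.9, 98.9 and 99.2 in KO and 99.7 and 99.6 in 4S-A. At each of these members FL overlapped with KO and with 4S-A. Both 4S-A libraries were above all 3 KO libraries at Rps19 and below them at Rpl15, there with 99.592 against 99.606 at the nearest. KO 1 and KO 2 belong to the other set, whose lists were shorter, and 4S-A was not tested against KO. The share of all genes with such a gap was not counted.

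Rpl27 ranged from 98.4 to 99.9 over the 8 libraries, Rpl27a from 98.1 to 99.7 and Rpl31 from 97.1 to 99.7. The peak of Rpl37 in FL 1 lay at chr15:5116212-5116803 and its summits spread over 46 bp in the 8 libraries. The peak of Rps19 in FL 1 lay at chr7:24883874-24884743 and its summits spread over 9 bp. Both covered the start of the gene. Rpl37 and Rpl15 shared their summit with the neighbouring genes Card6 and Nkiras1, each with an end within 1 kb of it. Such sharing held for 18 of 79 members (22.8%), close to 24.6% of all genes held in all 8 libraries.

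At the other end, Rpl32, Rps4x, Rpl35a, Rpl22, Rpl8 and Rpl19 were lowest. Rps4x, the X-linked copy of a small subunit protein, stood at 66.3, 78.1 and 87.8 in FL, 73.5, 68.4 and 90.0 in KO and 83.4 and 87.8 in 4S-A. Rpl35a stood at 68.1, 62.0 and 85.7 in FL, 72.8, 74.1 and 83.8 in KO and 86.9 and 84.9 in 4S-A. These are percentiles in whole lists, which were longer in the Tie2-Cre set. Ranked among the genes held in all 8 libraries, the sets overlapped at Rps4x, with 14.8 to 31.04 in the Mx1-Cre set and 24.3 to 42.4 in the Tie2-Cre set. On that scale Rpl35a had 15.2 to 25.6 in the Mx1-Cre set and 26.6 to 31.99 in the Tie2-Cre set, without overlap. Rpl8 stood at 72.3, 68.3 and 75.7 in FL, 63.0, 78.3 and 73.3 in KO and 73.4 and 72.5 in 4S-A, with overlapping groups. Rpl32 ranged from 67.3 to 90.4.

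**Figure D2:**
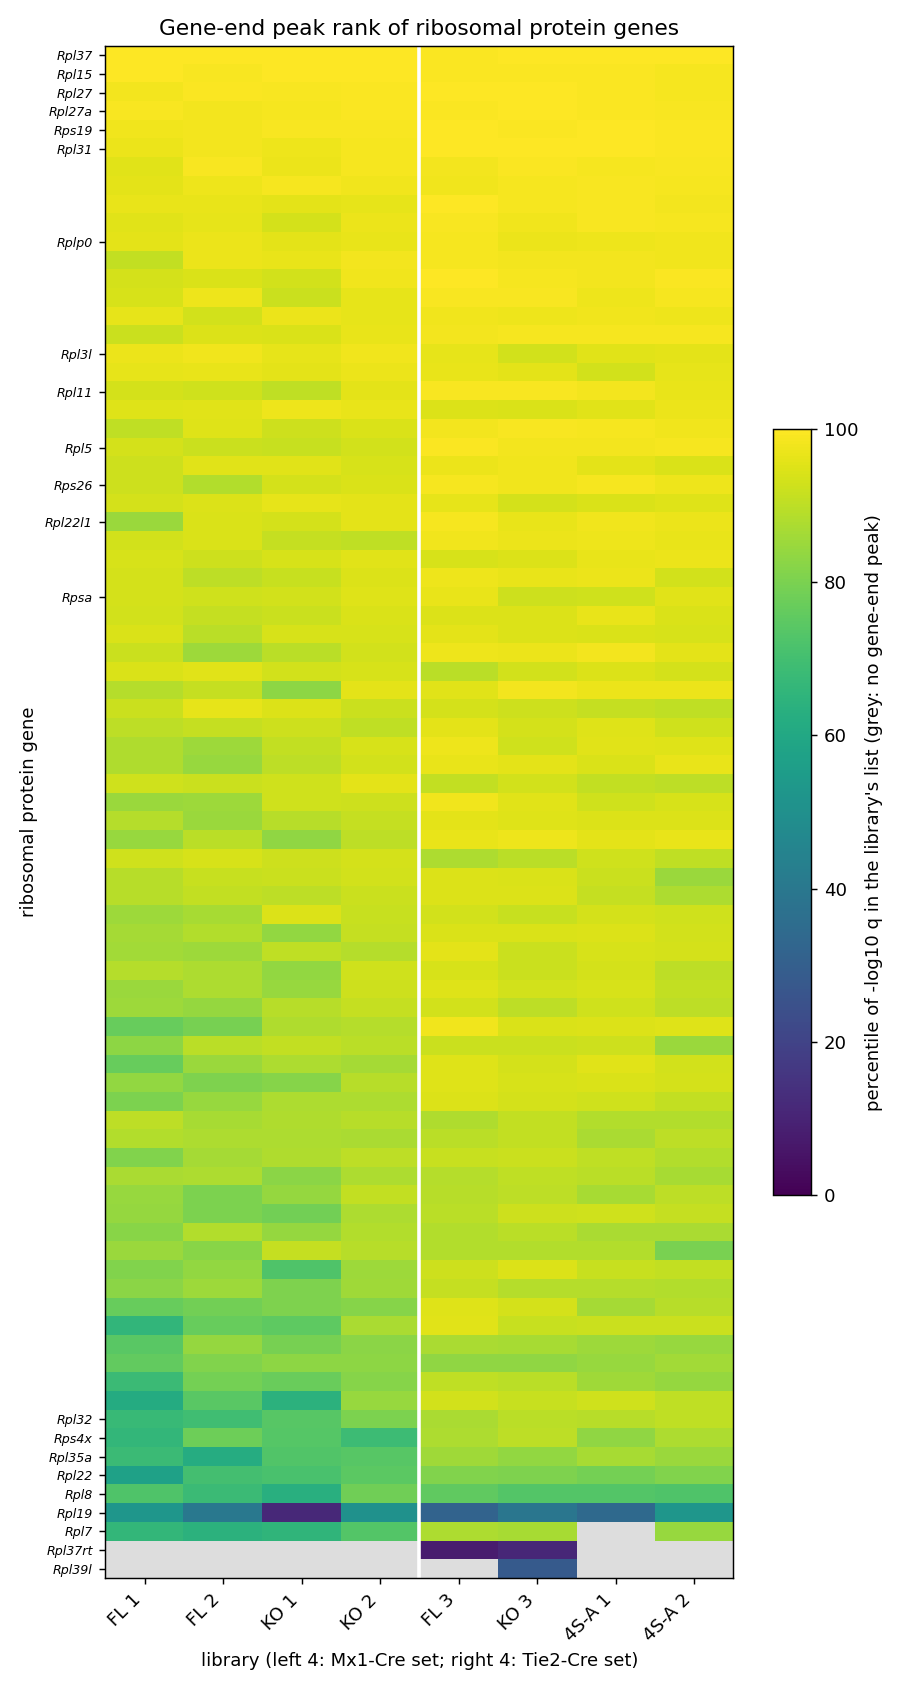
Percentile of −log10 q (colour, 0 to 100) of the strongest gene-end peak in the library's own list, for the 82 members with such a peak in any library (rows, ordered by the number of libraries and the mean, with names for the highest, the lowest, those missing in a library and those always described) and the 8 libraries (columns). Rows are mostly above 80 and the right 4 columns, the Tie2-Cre set with the longer lists, are lighter in many rows.

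The strongest gene-end peak was not always the peak at the start. Of 60 members with both in all 8 libraries, 6 had another peak at the start in some library, namely Rpl22, Rpl18, Rpl4, Rpl41 and Rpl19 in all 8 and Rps9 in 7. Rpl22, which binds RNA and is lost in some leukemias, had 57.2 in FL 1 by the span rule, which took a peak near the far end. The peak at its RefSeq start, chr4:152325534-152326356 in FL 1, had a percentile of 98.2, and the start peak ranged from 98.1 to 99.6 over the 8 libraries. Rpl19 stood at 52.5, 40.1 and 32.0 in FL, 11.5, 50.7 and 39.3 in KO and 34.2 and 52.7 in 4S-A by the span rule. Its peak at a RefSeq start stood at 39.4, 71.8 and 80.1 in FL, 68.5, 68.8 and 80.2 in KO and 76.5 and 76.004 in 4S-A, lower than the span peak in FL 1 and higher in the other 7 libraries. At Rpl4 the start peak was the weaker one, with 52.3 in FL 1 against 86.2. Rps27l, a small subunit paralog induced by p53, and Rps2 had no gene-end peak in any library, yet their start peaks stood at 97.0 and 90.0 in FL 1. Rpl17, for which no RefSeq start was listed, had a peak in FL 1 with its summit 1519 bp inside the span and a percentile of 63.2.

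Counting only peaks within 1 kb of a listed RefSeq start, 62 of 69 members with such a start (89.9%) were held in all 8 libraries, against 9036 of 17273 genes (52.3%). All 57 subunit and P stalk genes with a listed start were held in all 8 libraries, and 20 further members had no listed start. The 7 that were not held were paralogs or other matches: Rpl3l, Rpl10l, Rpl32l, Rpl39l, Rpl37rt, Rps23rg1 and Rps27rt. Rpl10l and Rpl39l, paralogs known for expression in the testis, had 0 of 8 and 1 of 8 libraries with a start peak. The single peak of Rpl39l was in KO 3, with a percentile of 28.4, although the sequence printed above holds CCGGAA 3 times. Rpl3l, the muscle paralog of Rpl3, had no start peak. Its gene-end peak, with a percentile of 97.1 in FL 1, lay 362 bp beyond its far end at chr17:24736287-24736742, within 1 kb of an end of Msrb1.

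Rpl7 had a gene-end peak in every library but 4S-A 1. There a peak of 2159 bp had its summit 1375 bp from the gene end. FL 1 had separate peaks in this region, with summits 297 and 1383 bp away and percentiles of 66.2 and 74.8. In FL 3, KO 3 and 4S-A 2 a single peak of 2145, 2112 and 2156 bp covered the region, with its summit 297, 292 and 297 bp away. The missing gene-end peak in 4S-A 1 thus reflects which summit was called within an open region. Rpl37rt had a gene-end peak only in FL 3 and KO 3, with percentiles of 7.73 and 11.2. Rpl22l1, the paralog that can replace Rpl22, was held in all 8 libraries, with 84.8, 94.4 and 98.5 in FL, 93.7, 95.9 and 96.7 in KO and 97.9 and 97.1 in 4S-A.

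Summits sat close to the start. For the 62 members with a start peak in all 8 libraries, the median summit lay 43.5 bp upstream of the nearest listed start, with quartiles of -79.2 and -15.6 bp, and 52 (83.9%) lay within 100 bp of it. Over all 9036 genes the median was -41 bp and 66.2% lay within 100 bp. The spread of a member's summit over the 8 libraries had a median of 41 bp, against 53 bp for all genes. Rps26, another Diamond-Blackfan gene, was farthest, with a median of -320.5 bp and a spread of 42 bp. Rpl39 had the next farthest median, -159.5 bp, with a spread of 320 bp over the libraries, but no summit lay near that median. Its summits were at 8, -18, -8 and -18 bp in FL 1, FL 3, KO 1 and KO 3. They were at -301, -312, -312 and -310 bp in FL 2, KO 2, 4S-A 1 and 4S-A 2. The widest spread was 550 bp, at Rpl4.

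**Figure D3:**
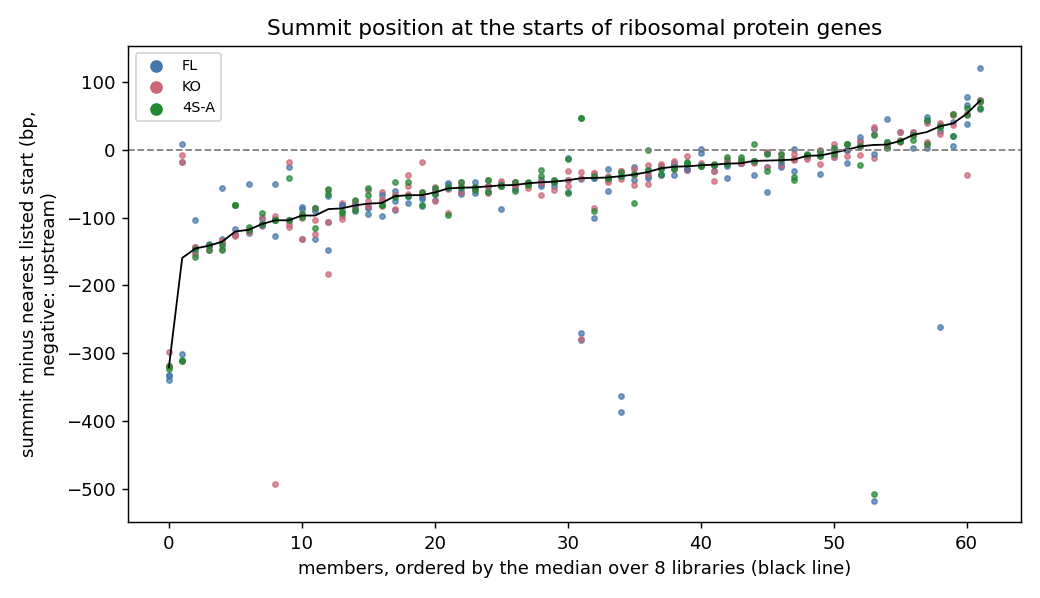
Distance of the summit from the nearest listed start (y axis, bp, negative upstream) for the 62 members with a start peak in all 8 libraries (x axis, ordered by the median, black line), with 1 point per library coloured by group. Most points lie between -100 and 0, but the groups do not coincide at every member. At Rpl10a both 4S-A points lie at 47 bp and the FL and KO points from -281 to -33 bp.

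Fold enrichment, the authors' ratio of the summit over the local background, and peak width were close to those of other genes. The median fold enrichment of the 79 members was 10.9, 10.6 and 11.4 in FL, 10.7, 11.8 and 11.1 in KO and 10.2 and 10.1 in 4S-A, against 9.88 to 11.3 for all genes. By median over the libraries, Rpl31 was highest with 15.3 and Rpl19 lowest with 3.49. The median width was 592, 594 and 1083 bp in FL, 612, 685 and 1035 bp in KO and 1034 and 1007 bp in 4S-A. Over all genes it was 554, 581 and 1030 bp in FL, 602, 673 and 1026 bp in KO and 1021 and 995 bp in 4S-A. Widths therefore divided the libraries by set, in members and in all genes alike. The Tie2-Cre set also had the longer lists, 91586 to 104605 peaks against 51510 to 74026.

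Percentiles in whole lists depend on list length, so libraries were compared on the percentile among the 10731 genes with a gene-end peak in all 8 libraries, where the median gene stands at 50 in every library. The member median was 56.7, 55.9 and 67.9 in FL, 60.3, 59.1 and 59.8 in KO and 58.3 and 57.4 in 4S-A. Averaged over libraries it was 60.2 ± 6.72 in FL (SD, n = 3), 59.7 ± 0.573 in KO (SD, n = 3) and 57.8 ± 0.695 in 4S-A (SD, n = 2). FL 3 stood highest and the other 7 libraries lay between 55.9 and 60.3. By role, the small subunit genes had library medians of 55.9 to 69.9, the large subunit genes 50.2 to 63.8 and the P stalk genes 52.7 to 70.3.

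**Figure D4:**
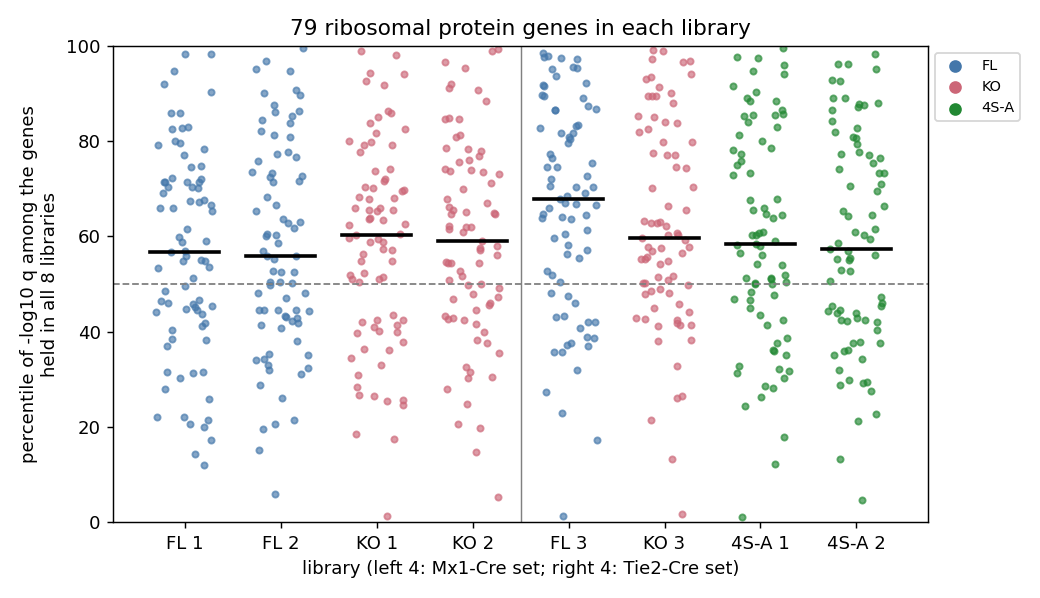
Percentile of −log10 q among the genes held in all 8 libraries (y axis) for the 79 members (points) in each library (x axis). Black bars mark the member median, 55.9 to 67.9, and the dashed line marks 50, the median of all genes.

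Of the members always described, Rplp0, the core of the P stalk, stood at 80.0, 84.5 and 89.5 on this scale in FL, 79.1, 78.0 and 77.0 in KO and 78.1 and 82.0 in 4S-A. Rpsa, the small subunit protein also known as the laminin receptor, stood at 70.5, 65.3 and 76.4 in FL, 68.1, 69.9 and 51.5 in KO and 51.2 and 66.4 in 4S-A. All 3 FL libraries were above all 3 KO libraries at Rplp0, with 80.0 against 79.1 at the nearest, and 4S-A overlapped with both. How many of all genes separate FL from KO in this way was not counted. The fitted difference at Rplp0, KO minus FL, was -6.63 points (SE 3.75, limma adjusted p = 0.743) and did not pass the test. At Rpsa the groups overlapped. Rpl5 and Rpl11, which bind MDM2 when ribosome assembly fails, divided by set. Rpl5 stood at 70.3 and 62.9 in FL 1 and 2, 62.5 and 62.0 in KO 1 and 2, then at 93.6, 85.2, 85.3 and 88.0 in FL 3, KO 3, 4S-A 1 and 4S-A 2. Rpl11 stood at 71.4, 66.6, 58.8 and 73.5 in the Mx1-Cre set and at 92.2, 93.1, 85.6 and 74.2 in the Tie2-Cre set.

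The KO against FL comparison asks whether loss of DEK changes these promoters. No member lost or gained its gene-end peak between all FL and all KO libraries. Over all protein-coding genes 7 (0.0324%) were lost and 25 (0.116%) gained. With limma and the set as a covariate, 0 of 79 members passed an adjusted p of 0.05 in percentile, against 0 of 10731 genes (0%). At an unadjusted p under 0.05 there were 1 member and 770 genes. On simulated data this percentile fit recovered 0% of 200 planted changes at a shift of 1 on the logit scale. At a shift of 2 it recovered 55%, so a moderate change could be missed. For fold enrichment 0 members and 0 genes (0%) passed, with 1 member and 895 genes unadjusted. For width 0 members and 0 genes (0%) passed, with 6 members and 811 genes unadjusted.

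The median difference of the members, KO minus FL, was 0.27 percentile points against -0.04 for all genes, with 43 members higher and 36 lower. Inside the Mx1-Cre set it was 1.57 points and inside the Tie2-Cre set, KO 3 against FL 3, it was -3.97 points. Rpl9 had the lowest value, -11.9 points (SE 4.86, limma adjusted p = 0.623). It stood at 70.1, 71.7 and 83.2 in FL and 60.5, 51.7 and 77.2 in KO, so KO was lower than FL inside each set. Rpl3l and Rpl13a followed with -8.22 and -7.89 points. Rpl10, an X-linked large subunit protein at the subunit interface, had the highest value, 8.37 points (SE 6.87, limma adjusted p = 0.841). It stood at 46.7, 48.0 and 57.1 in FL and 74.2, 54.5 and 48.2 in KO, and KO 3 was below FL 3. Without KO 1 the value of Rpl10 was 0.30 points, and without FL 3 or KO 3 it was 16.99. Rpl36a and Rps3a1 followed with 7.77 and 6.55 points, and Rps3a1 had -1.80 points without FL 1. With each library left out, Rpl9 ran from -14.8 to -8.49 points, Rpl3l from -10.4 to -3.55, Rpl13a from -12.7 to -2.70 and Rpl36a from 3.00 to 12.1.

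The largest width difference in KO against FL was at Rps29, a zinc-binding small subunit protein. Its peak was 665 and 737 bp wide in FL 1 and FL 2 and 1277 and 1314 bp in KO 1 and KO 2, but 1338 bp in FL 3, 1355 bp in KO 3 and 1351 and 1429 bp in 4S-A. The centred log2 difference, KO minus FL, was 0.49 (SE 0.151, limma adjusted p = 0.646). Leaving out FL 3 or KO 3, which leaves the Mx1-Cre set to carry the contrast, gave 0.72 with adjusted p of 0.0493 and 0.0484, so this call rested on leaving out a Tie2-Cre library. The set-by-genotype difference at Rps29 was -0.70 (limma adjusted p = 0.251). Rps29 was not among the members fixed for naming and was chosen after its values were seen.

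The 4S-A against FL comparison asks the same of the DEK serine mutant, and it shares the FL libraries with the KO comparison. No member lost or gained its gene-end peak, against 53 genes lost (0.245%) and 264 gained (1.22%). In percentile 0 of 79 members passed, against 18 of 10731 genes (0.168%), with 8 members and 837 genes at an unadjusted p under 0.05. In fold enrichment 0 members passed against 6 genes (0.0559%), with 3 members and 499 genes unadjusted. In width 0 members and 0 genes (0%) passed, with 3 members and 580 genes unadjusted.

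The members' median difference, 4S-A minus FL, was -4.81 percentile points, against -0.09 for all genes, with 60 members lower and 19 higher. This value rested on FL 3, the only FL library of the Tie2-Cre set. Without FL 3 it was -0.30, without the set covariate -0.13, and with percentiles in whole lists -0.08. Beside it, the median was -1.37 for mitochondrial ribosomal proteins, -1.71 for translation factors and -3.18 for ribosome biogenesis factors.

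Among the lowest differences was that of Rps27, a zinc-finger small subunit protein, with -24.5 points (SE 7.43, limma adjusted p = 0.331). It stood at 56.9, 58.6 and 64.6 in FL, 57.4, 57.2 and 63.3 in KO and 43.6 and 36.1 in 4S-A. Both 4S-A libraries were below all 6 others. The share of all genes with such a gap was not counted, and Rps27 was picked for its large difference.

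Rpl7a, a large subunit protein, had -22.7 points (SE 8.20, limma adjusted p = 0.434). It stood at 56.7, 61.9 and 63.8 in FL, 63.8, 62.0 and 59.8 in KO and 47.7 and 29.4 in 4S-A. Here too 4S-A was below all 6 others, in a gene picked in the same way. Rpl41, a very short large subunit peptide, had the highest difference, 15.6 points (SE 6.57, limma adjusted p = 0.561). It stood at 72.2, 63.7 and 59.6 in FL, 70.4, 71.3 and 63.0 in KO and 72.9 and 77.8 in 4S-A. At its RefSeq start, in place of either gene end, Rpl41 had -6.11 points. Rpl36al and Rps16 followed with 9.37 and 7.90 points, and with -2.12 and -6.66 points without the set covariate. With each library left out, Rps27 ran from -28.2 to -20.7 points, Rpl7a from -31.9 to -13.6, Rpl41 from 13.1 to 18.0 and Rpl36al from 2.96 to 15.8. None of these differences passed the test over all genes. In all 8 libraries the gene-end summits of Rps27, Rpl7a, Rpl41 and Rpl36al also lay within 1 kb of an end of another gene. These genes were Rab13, Med22, Zc3h10 and Mgat2, in the same order.

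**Figure D5:**
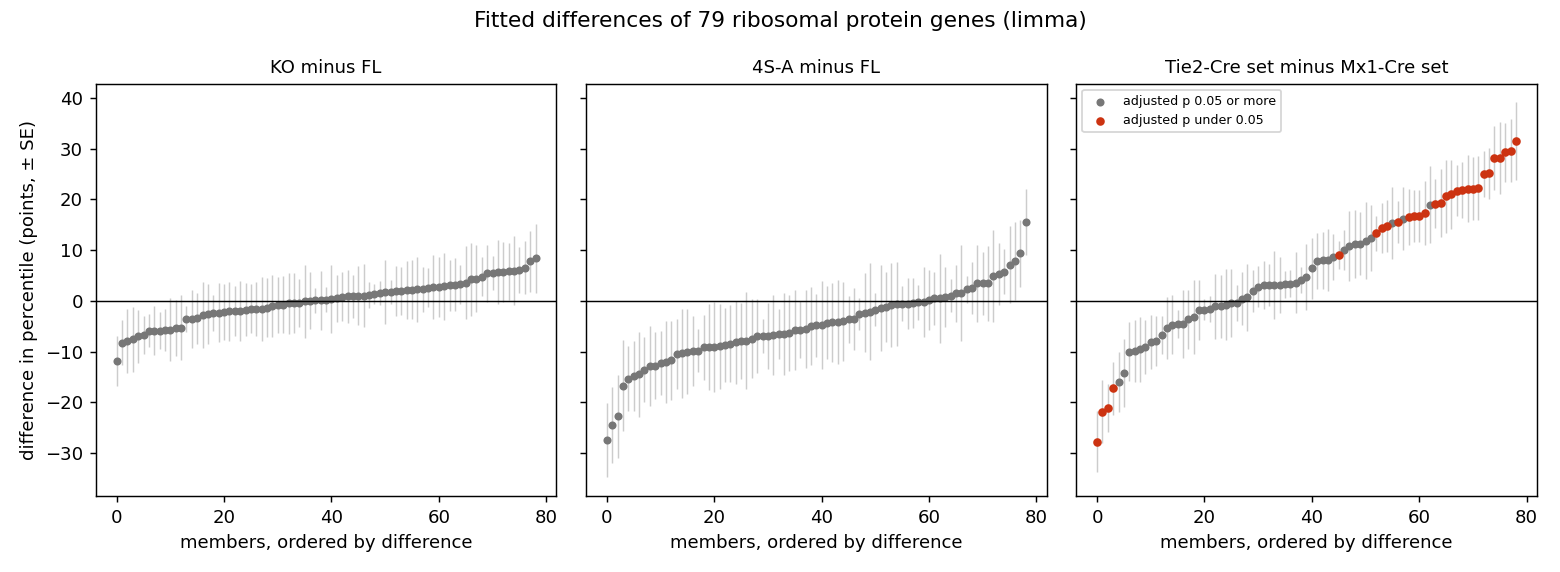
Fitted difference in percentile points (y axis, with the standard error from limma as grey bars) of the 79 members, ordered by size (x axis), for KO minus FL, 4S-A minus FL and Tie2-Cre set minus Mx1-Cre set. Red points passed an adjusted p of 0.05, 0 in the first and second panels and 29 in the third.

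The difference between the sets, taken from the same fit and added after the data were seen, gave more calls than either comparison. In percentile 29 of 79 members (36.7%) passed, 25 higher and 4 lower in the Tie2-Cre set, against 3127 of 10731 genes (29.1%), of which 14.3% of all genes were higher and 14.9% lower. The members' share called was near the background, while their direction leaned upward, with a median of 4.72 points against 0.24 for all genes. Without FL 3 the number of members called fell to 6 and without KO 3 to 17, with medians of 2.22 and 8.50 points. Treatment text, Cre line, control genotype and list length moved together between the sets and cannot be told apart.

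Rpl7l1, a paralog of Rpl7, rose most, by 31.4 points (SE 7.67, limma adjusted p = 0.00687). It stood at 31.6, 33.0, 52.3 and 45.6 in FL 1, FL 2, KO 1 and KO 2 and at 83.3, 60.8, 60.3 and 64.6 in FL 3, KO 3, 4S-A 1 and 4S-A 2, and the sets did not overlap. Rps7 rose by 29.6 points, with 40.9 to 55.3 in the Mx1-Cre set and 67.7 to 79.9 in the Tie2-Cre set. Rpl37a rose by 28.1 points, with 17.3 to 35.5 in the first and 44.4 to 56.3 in the second. Rpl39, Rpl11 and Rpl5 rose by 28.2, 25.1 and 25.01 points. Smaller rises, of 9.02 to 22.3 points, included those of Rps3, Rps4x, Rps6, Rps14, Rps20, Rps23, Rps26 and Rps28 of the small subunit and Rpl9, Rpl10a, Rpl14, Rpl23a, Rpl24, Rpl29, Rpl30, Rpl31, Rpl32 and Rpl34 of the large subunit.

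Rpl18 fell by 27.7 points, with 62.3 to 71.5 in the Mx1-Cre set and 36.9 to 50.1 in the Tie2-Cre set. This peak lay at chr7:45715133-45715540 in FL 1, away from the RefSeq start, and at the start peak of Rpl18 the set difference was -4.09 points (SE 4.997, limma adjusted p = 0.575). The start peak stood at 75.7, 73.3, 81.9 and 72.9 in the lists of FL 1, FL 2, KO 1 and KO 2 and at 82.1, 81.2, 78.6 and 80.1 in those of FL 3, KO 3, 4S-A 1 and 4S-A 2. Rps16, Rpl3l and Rpl36al fell by 21.8, 21.1 and 17.2 points, that of Rpl3l at the peak beyond its far end described above. In 22 members (27.8%) every Tie2-Cre library was above every Mx1-Cre library, against 16.2% of all genes, and in 7 members (8.86%) every one was below, against 17.5%. Set calls in other groups of the translation and protein turnover machinery were 26 of 71 mitochondrial ribosomal protein genes (23 higher), 24 of 63 translation factors (14 higher), 19 of 35 proteasome subunits (16 higher) and 9 of 28 ribosome biogenesis factors (7 higher). In these lists 0 genes passed in KO against FL or in 4S-A against FL.

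Fold enrichment did not follow the percentile. Between the sets 17 members passed in centred log2 fold enrichment (5 higher, 12 lower), against 42.5% of all genes, with 20.4% higher and 22.1% lower, and a median of -0.09 for members against -0.02, the opposite sign to the percentile. In centred log2 width 14 members passed (5 higher, 9 lower), against 24.5% of all genes, with 8.69% higher and 15.8% lower, and a median of -0.06 against -0.08. Rps4x rose in fold enrichment by 0.58 on the log2 scale, and by 0.60 at its RefSeq start. Rpl22 rose by 0.63 at its far-end peak, but its start peak had a difference of -0.05 (limma adjusted p = 0.644). Rpl3l and Rpl18 fell by 0.48 each, and the start peak of Rpl18 had -0.10 (limma adjusted p = 0.621). Without FL 3 the members called fell to 2 in fold enrichment and 0 in width. A test of whether the KO effect differed between the sets passed for 0 members in percentile, fold enrichment or width, against 0.0466%, 0.0186% and 0% of all genes, with 5, 2 and 6 members at an unadjusted p under 0.05.

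The order of the members was shared by all libraries. Spearman's rho over the 79 members was 0.886 to 0.938 for the 12 pairs of libraries of the same set and 0.684 to 0.835 for the 16 pairs across sets. These are correlations across genes, which are not independent replicates, and the pairs share list length and set. The labelled cell type was checked on marker genes. Kit and Cd34 had a gene-end peak in all 8 libraries and Fcgr3 in 7, and 7 of 9 granulocyte-macrophage markers had one in all 8, with Prtn3 in 5 and Csf3r in 0. Ly6a, which encodes Sca-1, had none, and 1 of 12 markers of other lineages (Pf4) had one in all 8 libraries.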

How the data were processed

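The submitters' processing notes list MACS2, featureCounts, Picard, Bowtie2 2.2.9 and Trim Galore 0.4.4, and mm10, with no role or order. The authors deposited 1 narrowPeak list per library, called per sample. The authors deposited for each peak a fold enrichment, a ratio of the summit to background in that library, and a −log10 q, neither scaled between libraries. The summit offset, a position in bp, was also deposited by the authors. The number of reads is unknown, only list length stands in for it, and no counting interval can be given. Peak names inside the lists carry other replicate labels than 2 of the KO samples, and those inside the FL lists read WT. Samples were taken as deposited.

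Gene spans and promoter windows came from RefSeq tables of GRCm38.p6. Each gene took its gene-end peak (summit within 1 kb of either span end) with the highest −log10 q. Differences were fitted with limma 3.58.1 (R 4.3.3) with trend, as group plus set over 8 libraries, on the 10731 genes held in all 8: percentile of −log10 q, and log2 fold enrichment and log2 width centred on each library's median. Benjamini-Hochberg adjustment ran over all these genes with a threshold of 0.05. The script was tested on simulated data for KO against FL in percentile, with the recovery given in that comparison. Alternatives covered the window, list length, set covariate, trend, scale, RefSeq starts and each library left out. The set difference, the set-by-KO test and the RefSeq starts from the promoter table were added after the data were seen. Named members were the 6 highest and 6 lowest by mean percentile, those missing in any library, any called in the KO or 4S-A fits, the 3 largest differences each way and a preset list. Some results under this rule are not reported here. Members and lists were chosen with earlier results of these data known.

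Replicate numbers 1 to 3 were shared by FL and KO. Deviations from the group means correlated at 0.413, 0.361 and 0.669 for the 3 numbers in percentile, but number 3 is the Tie2-Cre set. Inside the Mx1-Cre set, FL 1 minus FL 2 correlated with KO 1 minus KO 2 at 0.010, so the pairing comes from the set.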

Additional observations from a re-analysis of the deposited data

How the results depend on the processing

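With the replicate block in place of the set, on FL and KO libraries, 0 genes were called for KO against FL in percentile, fold enrichment and width, and no call changed. For 4S-A the block could not be fitted apart from the set. Members held in all 8 libraries numbered 78 with a −log10 q of at least 10 or with lists of equal length, and 74 within 500 bp.

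No member was called for KO or 4S-A against FL under any alternative except Rps29 in width (0 to 1 member with each library left out). Counts over all genes moved. For 4S-A against FL in percentile, 18 genes became 7 with RefSeq starts, 0 without trend, 9 on a logit scale, 7 without the set covariate, 1 with whole-list percentiles and 9 within 500 bp, and 1 to 20 with each library left out. In fold enrichment, 6 became 3 without trend, 2 with lists of equal length, 1 without the set covariate and 0 uncentred, and 0 to 11 with each library left out. In width, 0 became 3 with RefSeq starts, 11 without trend, 2 with lists of equal length, 6 uncentred and 1 within 500 bp, and 0 to 11 with each library left out.

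For KO against FL in width, 0 became 1 with RefSeq starts, without trend, with lists of equal length and uncentred. With each library left out the counts were 0 to 35 in percentile, 0 to 27 in fold enrichment and 0 to 125 in width. Only FL 3 and KO 3 gave more than 1: without FL 3 there were 30, 17 and 124 genes, and without KO 3 there were 35, 27 and 125.

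For the sets, with each library left out, genes called ran from 1044 to 2873 in percentile, 983 to 4988 in fold enrichment and 175 to 2433 in width, lowest without FL 3 in each. Without KO 3 they were 1951, 3008 and 1336. Members called ran from 6 to 26, 2 to 24 and 0 to 14. In width the members called were 9 without FL 2, 4S-A 1 or 4S-A 2, 5 without KO 3 and 0 without FL 3. Uncentred width gave 8179 genes and 73 members, and RefSeq starts gave 11 members in fold enrichment. The 5 differences that changed sign, none past the threshold, were Rpl36al and Rps16 in 4S-A without the set covariate (-2.12 and -6.66 points), Rps16 without FL 3 (-6.21), Rpl41 at RefSeq starts (-6.11) and Rps3a1 in KO without FL 1 (-1.80). With each library left out, Rps16 ran from -6.21 to 14.96 points and Rps3a1 from -1.80 to 12.1. The cause was not tested.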
